A study of Mus musculus with 20 samples.

Results

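Intestinal epithelial cells of Trif mutant mice were compared with those of Tlr4 knockout mice, an adaptor mutant against a mutant of a receptor that uses it. The comparison takes 8 of the 20 samples of the series, chosen by their genotype labels: 4 individual mice homozygous for the LPS allele of Trif (genotype label Trif mut, source Trif LPS/LPS) and 4 lacking Tlr4 (Tlr4 KO). The mice of both groups were healthy and 28 days old, and all carry the strain label C57BBL6. The 4 wild type mice of the same age and strain label give the reference level of each gene. The labels do not say what the LPS allele does to the Trif transcript, which part of the gut was taken, whether the lines were littermates, or whether the Tlr4 deletion is limited to any cell type. RNA from EDTA-released cells was labelled with Cy3 and hybridised to 1 one-colour Agilent array per mouse, so n = 4 mice per genotype throughout.

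Toll-like receptors recognise microbial molecules and pass the signal to adaptor proteins that carry a TIR domain. TLR4 binds lipopolysaccharide together with MD-2 and CD14 and uses both adaptor branches: MyD88 at the plasma membrane, which leads to NF-kappaB, and TRIF from endosomes, which leads to TBK1, IRF3 and type I interferon and, through RIPK1 and RIPK3, to cell death. TLR3 signals through TRIF alone. In the gut epithelium these pathways are known for controlling antimicrobial proteins, chemokines and responses to the microbiota.

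A signal below is the log2 processed signal of a gene's probe minus the 75th percentile of its array, and a difference is the mean of Trif mutants minus the mean of Tlr4 knockouts on that log2 scale, ± its standard error. FDR is limma's Benjamini-Hochberg adjusted p over all 21879 features kept, and "rose", "fell", "higher" and "lower" of a count stand for an FDR under 0.05. Signals of different probes are not comparable with each other.

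The cells carried the epithelial identity of their label. All 20 of 20 markers of intestinal epithelium were measured, and their mean signal was 5.6 to 5.93 in Trif mutants, 5.54 to 5.64 in Tlr4 knockouts and 5.35 to 5.65 in wild type. On the 12 arrays 64.7% to 71.2% of probes were well above background. Arrays of the same replicate number lay on 1 slide, and each genotype lay at 1 position on all 4 slides, so position and genotype cannot be told apart. Sex was unequal: Y-linked signal exceeded Xist on 3 of 4 Trif mutant arrays (1, 2 and 3) and on 0 of 4 Tlr4 knockout and 0 of 4 wild type arrays. Slide 4 alone therefore compares mice of like sex, and its values are given beside the others, together with a fit that has Xist signal as a covariate. That covariate takes its slope from the genotypes of mixed sex, the Trif mutants themselves and the Tlr3 knockouts of the series. Tlr4 knockout replicate 4 and Trif mutant replicate 4 lay apart from their groups for several genes, so values without one or both are given beside several results.

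Ticam1, the gene of TRIF (probe at chromosome 17, 56409285 to 56409344, mm9), had a signal of 2.15, 2.23, 2.19 and 1.67 in Trif mutants 1 to 4, 1.61, 1.46, 1.47 and 1.71 in Tlr4 knockouts 1 to 4 and 1.25 to 1.6 in wild type. Trif mutants 1 to 3 lay above every Tlr4 knockout and Trif mutant 4 lay among them. The difference was 0.5 ± 0.13 (FDR = 0.0053), and a further probe of the gene gave 0.43 (FDR = 0.021). After normexp background correction it was 0.39, FDR = 0.21, and with the Xist covariate 0.29, FDR = 0.2. The mutant transcript was therefore still measured, and this signal checks no label. Tlr4 itself (chromosome 4, 66503724 to 66503782) was not well above background in any of the 12 mice with either of its 2 probes. Its signal was -7.75 ± 0.74 (SD) in Trif mutants, -8.37 ± 0.35 in Tlr4 knockouts and -8.13 ± 0.44 in wild type, so it cannot check the knockout in these cells.

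Across all features 8992 of 21879 (41.1%) differed between Trif mutants and Tlr4 knockouts, 5146 higher (23.5%) and 3846 lower (17.6%). Every count of list members in this report is to be read beside these shares. A difference of at least 1 was reached by 1286 of the higher and 1643 of the lower features, and one of at least 3 by 51 and 76. The median of all features was 0.13, so a member's difference is to be read against that shift. After normexp it was 0.32, under quantile normalization 0.07. The share of calls that were higher was 57.2%, and 51.1% and 51.2% under these alternatives. The 4 Trif mutant arrays all lay above the 4 Tlr4 knockout arrays for 20.3% of features and all below for 14.9%. Against wild type, 28.7% of features were higher and 15.7% lower in Trif mutants, and 9.6% were higher and 3.13% lower in Tlr4 knockouts. Both of these comparisons use the same wild type arrays. Large falls were those of Pla2g5, Saa2, Saa3, Cd74, Retnlb, H2-Aa and Ubd, genes of secreted defence proteins, antigen presentation and a ubiquitin-like modifier. Saa3 was well above background in 0 of 4 Trif mutants and Retnlb in 1 of 4, so these genes are not ranked.

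**Figure D1:**
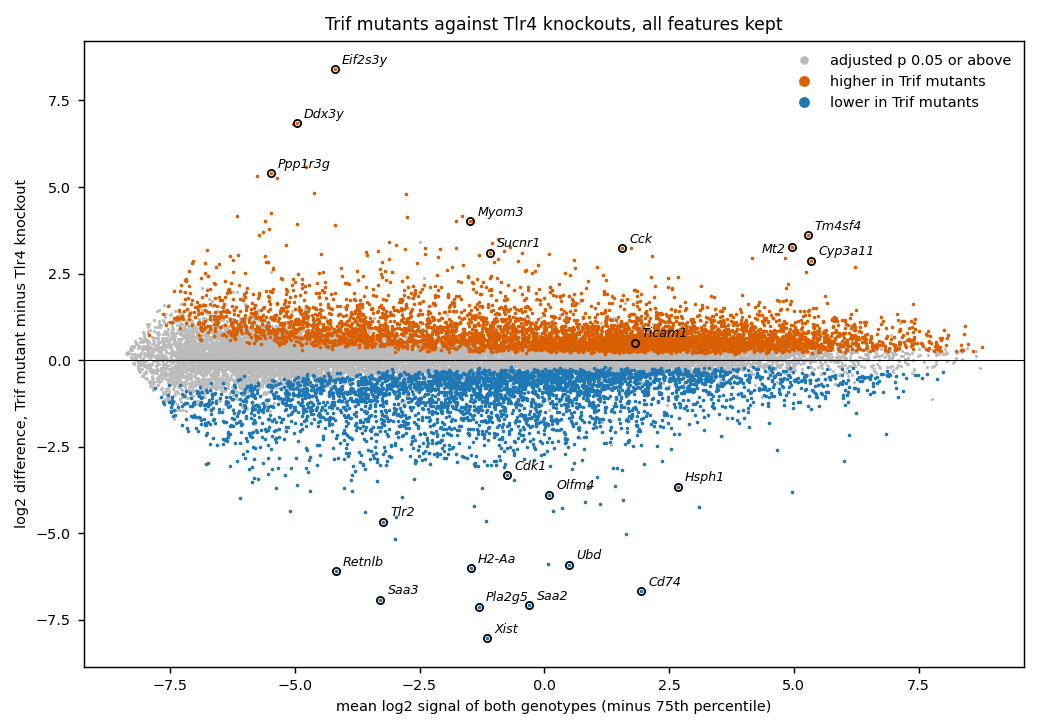
Log2 difference (Trif mutant minus Tlr4 knockout) of all 21879 features against their mean log2 signal in both genotypes. Orange points are the 5146 higher and blue points the 3846 lower features, grey points did not pass, and circles mark genes named in the text: Cd74, H2-Aa, Saa2, Saa3, Retnlb, Pla2g5 and Ubd lie near the bottom, and Eif2s3y, Ddx3y and Xist mark sex.

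Receptors for bacterial lipoproteins and proteins that bind microbial lipids held large falls in Trif mutants. Of 12 Toll-like receptors listed, 9 were on the array and 6 were measured, with 1 higher and 2 lower. Tlr2, the receptor for bacterial lipoproteins, had a signal of -5.28, -5.76, -6.46 and -4.76 in Trif mutants 1 to 4, -0.7, -0.6, -0.67 and -1.65 in Tlr4 knockouts and -2.71 to -1.68 in wild type. Every Trif mutant lay below every other mouse, and the difference was -4.66 ± 0.36 (FDR = 1.4e-07). The probe was well above background in 2 of 4 Trif mutants and in all other mice of these groups. Its partner Tlr1 followed at -5.12, -5.47, -5.36 and -3.38 against -0.84, -0.54, -0.49 and -1.63, with wild type at -1.61 to -1.18 and a difference of -3.96 ± 0.37 (FDR = 1.1e-06). Trif mutant 4 was the highest of its group for both genes, without reaching the Tlr4 knockouts. Tlr6, the other partner of Tlr2, differed by 0.84 ± 0.27 (FDR = 0.02) near background, with overlapping arrays. Leaving out any of 4 single arrays (Trif mutant 1 or 4, Tlr4 knockout 1 or 3) ended its call (FDR 0.051 to 0.073), as did normexp, quantile normalization and the Xist covariate (FDR 0.54, 0.065 and 0.078). The receptors Tlr3 (0.27 ± 0.14), Tlr5 (0.4 ± 0.34) and Tlr9 (0.037 ± 0.18) did not pass the test.

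Of 15 proteins of lipopolysaccharide recognition, 13 were measured, 4 of them higher and 5 lower, beside 23.5% and 17.6% of all features. Lbp, the serum protein that hands lipopolysaccharide to CD14, was at -5.4, -5.21, -4.58 and -5.78 in Trif mutants and -2.31, -2.4, -2.35 and -3.72 in Tlr4 knockouts, a difference of -2.55 ± 0.31 (FDR = 1.1e-05). Cd14 was at -1.38, -1.19, -0.67 and -1.67 against 0.22, 0.22, 0.21 and -0.45, a difference of -1.28 ± 0.23 (FDR = 0.00028). For both genes Tlr4 knockout 4 was clearly the lowest of its group and still above all Trif mutants. Itgam, the CD11b integrin chain of myeloid cells, fell by 1.43, and Unc93b1, which carries nucleic acid-sensing receptors to endosomes, by 0.67. Ly96, the gene of MD-2, went the other way at 0.44 ± 0.088 (FDR = 0.00078), with 1.13 to 1.21 in Trif mutants against 0.64 to 0.85. After normexp, Lbp (-0.6, FDR = 0.43), Itgam (-0.57, FDR = 0.28) and Ly96 (0.33, FDR = 0.071) no longer passed. The scavenger receptor Cd36 (1.04 ± 0.38, FDR = 0.036) and the MD-1 gene Ly86 (0.59 ± 0.19, FDR = 0.017) were higher with overlapping arrays. Leaving out single arrays ended both calls (Cd36 without Trif mutant 1 or 3 or Tlr4 knockout 1, 2 or 3, FDR 0.066 to 0.13, and Ly86 without Trif mutant 4 or Tlr4 knockout 2, FDR 0.052 and 0.072).

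Medians of the signalling proteins downstream were near that of all features. Their counts stand beside 23.5% higher and 17.6% lower of all features. Of 6 TIR adaptors 5 were measured, with Ticam1 and Sarm1 higher and 0 lower. Another probe of Tirap, beside the one kept, gave -0.51 (FDR = 0.0021). Without Tlr4 knockout 4 the list had 2 higher and 2 lower, and the same counts with array weights. Sarm1, an adaptor known as an NAD-cleaving enzyme of neurons, was not well above background in Tlr4 knockouts and at least 1.31-fold higher (0.88 ± 0.27, FDR = 0.015). Its call was lost after normexp (0.56, FDR = 0.53), with the Xist covariate (0.83, FDR = 0.12) and without Trif mutant 3 or Tlr4 knockout 1 (FDR 0.056 and 0.066). Myd88 differed by -0.13 ± 0.11 (FDR = 0.35). Ticam2, the bridging adaptor between TLR4 and TRIF, was not kept by the filter on dim probes. In the TRIF branch 7 of 21 measured genes were higher and 5 lower, with a median of 0.12 (0.2 without Trif mutant 4, and 8 higher and 3 lower without both replicates 4). The kinase Tbk1 (0.19 ± 0.14) and the ubiquitin ligase Traf3 (-0.072 ± 0.11) did not pass. The members with the largest falls belong to the necroptosis arm. Zbp1, a nucleic acid sensor that binds RIPK3, was at 1.37, 0.81, 0.95 and 0.94 in Trif mutants and 3.43, 3.21, 4.39 and 2.93 in Tlr4 knockouts, and wild type (2.95 to 4.59) lay with the latter. The difference was -2.47 ± 0.33 (FDR = 2.4e-05), with no overlap. Ripk3 fell by 1.36 (± 0.14, FDR = 2.4e-06) and its target Mlkl, which perforates the membrane, by 0.91 (FDR = 0.0014). Cflar, which restrains caspase-8, rose by 0.7 ± 0.1 (FDR = 5.7e-05), and its 5 other probes gave 0.32 to 0.40, of which 2 passed. In the MyD88 branch 9 of 20 measured genes were higher and 3 lower (median 0.085). Chuk (0.56 ± 0.14, FDR = 0.0045), the IKK-alpha kinase, rose most and Irak1, a kinase recruited by MyD88, fell by 0.68. The Xist covariate ended the calls of Chuk (0.51, FDR = 0.068) and Irak1 (-0.53, FDR = 0.096), and normexp that of Chuk (0.44, FDR = 0.17). Among 21 pathway inhibitors 5 were higher and 5 lower. Zc3h12a, an RNase that degrades cytokine transcripts, was at -2.52, -1.9, -2.18 and -1.58 against -0.17, -0.51, -0.21 and -0.43, a difference of -1.72 ± 0.17 (FDR = 2.1e-06), and Trim30a rose by 0.99 ± 0.26 (FDR = 0.0058; another probe 0.42, FDR = 0.39; with the Xist covariate 0.87, FDR = 0.087).

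The MHC class II pathway, which displays peptides to CD4 T cells and is inducible in epithelium by interferon-gamma through CIITA, had the largest median difference of the 45 lists that leave sex aside. All 9 measured genes of 12 listed passed the test, 7 lower and 2 higher, and the median was -4.24. Within slides 1 to 4 the median was -4.18, -4.1, -4.05 and -4.01, so it was close to the others on slide 4, where both mice were of like sex, and with the Xist covariate it was -4.34. Both genotypes departed from wild type, in opposite directions: 7 of the 9 were higher in Tlr4 knockouts (median 2.67) and 6 were lower in Trif mutants (median -1.19).

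Elements known from class II promoters, the X box and the Y box, were searched in the listed genes. The promoters of H2-Eb1, H2-DMb1 and H2-Aa from RefSeq's table are printed because these class II genes fell together. They are the 250 bases before the start site in assembly GRCm38.p6, 5′ to 3′ on the gene's own strand, with the matches in capitals. The X box was searched in the form seen in capitals in H2-Eb1 and H2-DMb1, with 2 positions free (the one at which these genes differ and the one before its GATG end), and the Y box, a CCAAT element, as GATTGG. Both strands were searched, and the matches to the 2 motifs do not overlap. Promoters of 8 of the 12 listed genes were searched, and those of the others, Cd74 among them, were not used here.
H2-Eb1 (chr17:34305617-34305866, plus strand): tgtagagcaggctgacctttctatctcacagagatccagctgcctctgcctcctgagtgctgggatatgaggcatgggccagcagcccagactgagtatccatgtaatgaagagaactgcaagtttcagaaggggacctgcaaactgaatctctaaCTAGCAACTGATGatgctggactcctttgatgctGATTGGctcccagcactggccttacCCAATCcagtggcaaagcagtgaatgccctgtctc
H2-DMb1 (chr17:34152941-34153190, plus strand): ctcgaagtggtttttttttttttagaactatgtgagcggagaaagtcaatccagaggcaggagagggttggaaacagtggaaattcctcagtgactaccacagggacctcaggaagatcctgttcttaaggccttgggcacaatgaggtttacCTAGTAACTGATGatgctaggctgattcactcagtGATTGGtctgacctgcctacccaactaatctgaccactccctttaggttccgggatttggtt
H2-Aa (chr17:34287824-34288073, minus strand): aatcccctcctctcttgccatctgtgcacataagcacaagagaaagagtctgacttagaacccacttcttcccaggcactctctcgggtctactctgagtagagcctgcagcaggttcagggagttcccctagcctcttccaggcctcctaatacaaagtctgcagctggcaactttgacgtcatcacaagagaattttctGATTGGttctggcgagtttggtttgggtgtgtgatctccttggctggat
Counted from the start site, the X box of H2-Eb1 lay at -94 to -82 and its Y boxes began at -60 and, on the other strand, at -35. H2-DMb1 had the X box at -97 to -85 and a Y box from -62, and H2-Aa had a Y box from -49 and no match to the X box letters. H2-DMb2, H2-Oa, H2-Ob and 1 of 2 promoters of H2-DMa likewise held a Y box and no match to the X box letters, and the other H2-DMa promoter and that of Ctss held neither. H2-DMb2 (ctattaaccgatg) and H2-Ob (ctagcaacaaatg) held similar letters before the Y box, so a missing match does not mean a missing X box. Of 32851 promoters of this length, 9 (0.0274%) held the X box letters, 14.6% the Y box and 3 (0.00913%) both. The X box letters were written from H2-Eb1 and H2-DMb1, so the matches of these genes were fixed in advance and their rarity is no result. A match describes the letters only, and nothing was measured at these sites.

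Cd74, the invariant chain that fills the peptide groove, had a signal of 5.46, 5.19, 5.54 and 4.93 in Tlr4 knockouts 1 to 4, 1.07 to 1.55 in wild type and -0.93, -1.88 and -1.37 in Trif mutants 1, 2 and 4. Trif mutant 3 gave no value for this probe because of an outlier flag. The 3 genotypes did not overlap, and the difference was -6.67 ± 0.46 (FDR = 8e-08). H2-Aa, the alpha chain of I-A (chromosome 17, 34421285 to 34421344, mm9), was at -4.21, -4.78, -4.79 and -4.12 in Trif mutants, -3.08 to -2.32 in wild type and 1.77, 1.49, 1.6 and 1.27 in Tlr4 knockouts. Its difference was -6.01 ± 0.43 (FDR = 7.3e-08), and a further probe gave -6.21. The beta chains H2-Eb1 (-4.35 ± 0.34, FDR = 1.6e-07) and H2-Ab1 (-4.24 ± 0.32, FDR = 1.1e-07) and the peptide-exchange chains H2-DMb1 (-5.9 ± 0.39, FDR = 2.2e-08) and H2-DMa (-3.45 ± 0.29, FDR = 3.8e-07) fell likewise. In H2-Eb1, H2-Ab1 and H2-DMb1 every Trif mutant lay below every wild type mouse, which in turn lay below every Tlr4 knockout, and for H2-DMa the highest Trif mutant and the lowest wild type mouse were level. Ciita, the transactivator that switches these genes on, was at -2.38, -2.59, -3.35 and -3.32 in Trif mutants, -2.21 to -1.6 in wild type and 0.52, 0.31, 0.18 and -0.64 in Tlr4 knockouts. The difference was -3.0 ± 0.44 (FDR = 5.1e-05), with the same order of genotypes. The members that rose were Ctss (0.52 ± 0.17, FDR = 0.022), a protease of the same pathway that many cells express, and H2-Oa (0.61 ± 0.22, FDR = 0.031), an inhibitor of peptide exchange found mostly in B cells. Neither passed after normexp (FDR 0.30 and 0.46) or with the Xist covariate (FDR 0.16 and 0.68), and each lost its call when single arrays were left out (Ctss without Tlr4 knockout 1, 2 or 3, FDR 0.055 to 0.073, and H2-Oa without Trif mutant 1 or 2 or Tlr4 knockout 2 or 4, FDR 0.054 to 0.12).

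Professional antigen-presenting cells carry class II at high levels, so their markers are given beside these values. Of 21 measured genes of macrophages and dendritic cells 7 were higher and 3 lower in Trif mutants, and their mean signal was -3.15 to -2.71 in Trif mutants, -3.33 to -3.09 in Tlr4 knockouts and -3.34 to -2.93 in wild type. Mrc1, the mannose receptor, rose by 3.15 ± 0.44 (FDR = 3.2e-05) and Tyrobp by 1.1 ± 0.3 (FDR = 0.0074), with Tyrobp at 1.04, FDR = 0.079 under the Xist covariate. Itgam of myeloid cells and Cd14, both given above, went the other way at -1.43 and -1.28. Of all features 23.5% were higher and 17.6% lower. Of 15 measured genes of B and plasma cells 1 was higher and 4 lower, and their mean signal was -4.73 to -4.29, -4.27 to -3.76 and -4.62 to -4.1 in the same order. Jchain, the joining chain of secreted immunoglobulin, ranged over -7.44 to -4.28 in Trif mutants and -4.0 to -1.25 in Tlr4 knockouts (-2.85 ± 0.66, FDR = 0.0023), and Derl3 of plasma cells differed by -2.16 ± 0.19 (FDR = 6.1e-07). Sdc1, the member that rose, was at 2.43, 2.87, 3.2 and 2.23 in Trif mutants and 2.05, 2.12, 2.24 and 1.73 in Tlr4 knockouts. After normexp Jchain (-0.69, FDR = 0.39) and Derl3 (-0.5, FDR = 0.5) no longer passed. The median of the B and plasma cell list was -0.08, and after normexp 0.32 with 0 higher and 0 lower. The part of B cells in the class II difference was not tested. In bulk samples, fewer cells of a type and less RNA per cell cannot be told apart.

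**Figure D2:**
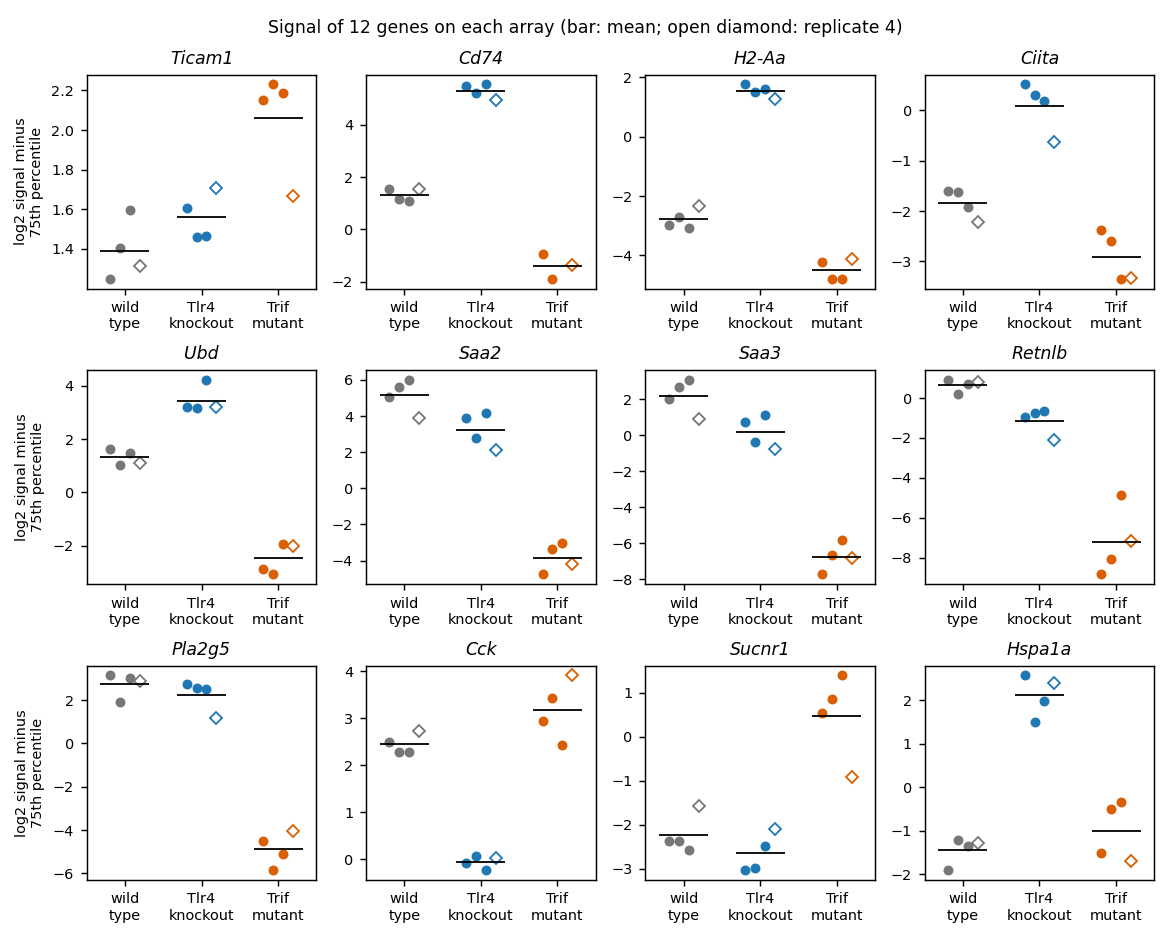
Signal (log2, minus the array's 75th percentile) of 12 genes on each wild type, Tlr4 knockout and Trif mutant array, with the mean of each group as a bar and replicate 4 as an open diamond. The class II genes Cd74, H2-Aa and Ciita are highest in Tlr4 knockouts and lowest in Trif mutants. The serum amyloid genes Saa2 and Saa3 are lowest in Trif mutants, with the mean of Tlr4 knockouts below that of wild type. Hspa1a is highest in Tlr4 knockouts alone.

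Genes induced by interferon-gamma were lower in part, as class II genes were. Both lists hold Ciita, so they are not fully separate sets. Of 29 measured 14 were lower in Trif mutants and 1 was higher, with a median of -0.49 overall and -0.55, -0.39, -0.84 and -0.62 within slides 1 to 4. Ubd, the ubiquitin-like modifier FAT10, was at -2.86, -3.07, -1.93 and -2.0 in Trif mutants, 1.03 to 1.63 in wild type and 3.21, 3.15, 4.22 and 3.18 in Tlr4 knockouts. Its difference was -5.91 ± 0.39 (FDR = 2.8e-08), with wild type in between. The GTPase Iigp1, which attacks parasite vacuoles, was at -6.34, -5.3, -3.99 and -6.7 against -0.48, -0.89, 1.03 and -1.31, a difference of -5.17 ± 0.68 (FDR = 2.1e-05). Tlr4 knockout 3 was the highest mouse for both genes. Related GTPases fell by less, Igtp by 1.93 (± 0.26) and Gbp2 by 2.00 (± 0.5; after normexp -1.18, FDR = 0.093). The chemokine Cxcl11 rose instead (1.17 ± 0.19, FDR = 0.00011), at -0.39 to -0.011 in Trif mutants and -1.6 to -1.12 in Tlr4 knockouts. Against wild type, 6 of the 29 were higher in Tlr4 knockouts, and 2 were higher and 10 lower in Trif mutants.

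MHC class I genes moved in both directions. Of 24 measured genes 9 were higher and 6 lower, beside 23.5% and 17.6% of all features, with a median of 0.01. The lower ones include the immunoproteasome subunit Psmb9 (-1.1 ± 0.17, FDR = 6.1e-05) and the peptide transporter Tap1 (-1.05 ± 0.19, FDR = 0.00025). Among the higher ones H2-T22, a nonclassical class I chain, had the largest rise (0.62 ± 0.12, FDR = 0.00043). Under quantile normalization 2 were higher and 9 lower, and after normexp 1 and 4.

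Type I interferon-stimulated genes, which lie downstream of TRIF and IRF3, had a median of 0.11, with 10 of 45 higher and 3 lower, beside 23.5% and 17.6% of all features. The median was 0.44, 0.33, -0.0026 and -0.11 within slides 1 to 4, 0.25 without Trif mutant 4 and 0.3 without both replicates 4. Samd9l (1.36 ± 0.27, FDR = 0.00074) and Ifi27 (1.27 ± 0.15, FDR = 8.9e-06) rose and Ifi44 fell (-2.21 ± 0.49, FDR = 0.0016; after normexp -1.16, FDR = 0.12). With the Xist covariate 4 were higher and 4 lower. Compared with wild type 10 were lower in Tlr4 knockouts and 12 in Trif mutants. Wild type replicate 4 had the highest mean of the list on any of the 12 arrays, 2.07, against 1.04 to 1.24 on the other wild type arrays.

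Of 28 measured NF-kappaB targets 8 were higher and 6 lower, beside 23.5% and 17.6% of all features, with a median of -0.03. The cytokine Tnf was at -6.46, -5.79, -6.33 and -6.24 in Trif mutants and -3.52, -3.72, -4.34 and -5.04 in Tlr4 knockouts (-2.05 ± 0.31, FDR = 5.8e-05). That is close to background, and after normexp the gene did not pass (-0.018, FDR = 0.98). The chemokines Ccl9 (-1.91 ± 0.22, FDR = 6.3e-06) and Ccl28 (-1.76 ± 0.2, FDR = 7.3e-06), the latter an attractant of IgA plasma cells, were lower, and normexp ended the call of Ccl28 (-0.72, FDR = 0.19). Cxcl16, a chemokine for lymphocytes, rose: it was at 1.36, 1.32, 1.82 and 0.78 in Trif mutants, -0.78, -0.87, -0.51 and -0.08 in Tlr4 knockouts and 0.26 to 0.75 in wild type, a difference of 1.88 ± 0.26 (FDR = 3.2e-05).

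Acute phase and mucosal defence genes held several large falls. Of 37 measured antimicrobial and mucosal defence genes 18 were lower and 5 higher (19 and 3 without both replicates 4), with a median of -0.83 overall and -0.67, -1.12, -0.72 and -0.74 within slides 1 to 4. Here Tlr4 knockouts lay near wild type, with 3 genes lower than in wild type, while 19 were lower in Trif mutants than in wild type and 4 higher. Of 30 measured acute phase and STAT3 targets 10 were lower and 6 higher, and the median was -0.01. After normexp the median of the defence list was -0.29, with 13 lower and 3 higher.

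Serum amyloid A proteins are lipid-binding acute phase proteins that the gut epithelium makes in response to microbes, and their genes lie side by side on chromosome 7. Saa2 was at -4.76, -3.36, -3.02 and -4.19 in Trif mutants 1 to 4, 3.9, 2.8, 4.15 and 2.12 in Tlr4 knockouts and 3.92 to 6.01 in wild type. All Trif mutants lay far below every other mouse, and of the Tlr4 knockouts 1 lay within the wild type range and the other 3 below it. The difference was -7.08 ± 0.66 (FDR = 1.1e-06). Saa3 was at 0.93 to 3.1 in wild type, from which Tlr4 knockouts differed by -2.0 (FDR = 0.043). It was at 0.75, -0.38, 1.11 and -0.78 in Tlr4 knockouts and not well above background in any Trif mutant, at least 73.3-fold lower (-6.93 ± 0.62, FDR = 7.9e-07, measured means -6.75 and 0.18). Such a bound sets the mean of the brighter group against the lowest signal that counted as well above background on each array of the dimmer group, or the probe's own signal where higher. Saa1 fell by 4.14 (± 0.55, FDR = 2.3e-05) with the probe kept and by 6.97 with another, and Saa4 (-0.34 ± 0.42), near background in all mice, did not pass, and was of opposite sign after normexp, in the deposited table and with the Xist covariate. Tlr4 knockouts differed from wild type by -1.81 for Saa1 (FDR = 0.038) and by -1.91 for Saa2 (FDR = 0.071).

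Saa1 and Saa2 are close copies, so their probes may share signal. Their promoters agree at 238 positions, with 11 mismatches and 2 gap positions. The Saa2 promoter is printed beside that of Saa3 because both genes fell, with the match to the C/EBP motif TTGCNNAA, searched on both strands, in capitals (assembly GRCm38.p6, 250 bases before the start site).
Saa2 (chr7:46751583-46751832, plus strand): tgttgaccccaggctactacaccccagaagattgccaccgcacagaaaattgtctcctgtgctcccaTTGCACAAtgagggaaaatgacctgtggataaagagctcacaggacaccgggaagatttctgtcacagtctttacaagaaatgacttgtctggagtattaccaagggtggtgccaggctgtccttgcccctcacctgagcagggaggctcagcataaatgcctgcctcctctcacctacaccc
Saa3 (chr7:46715677-46715926, minus strand): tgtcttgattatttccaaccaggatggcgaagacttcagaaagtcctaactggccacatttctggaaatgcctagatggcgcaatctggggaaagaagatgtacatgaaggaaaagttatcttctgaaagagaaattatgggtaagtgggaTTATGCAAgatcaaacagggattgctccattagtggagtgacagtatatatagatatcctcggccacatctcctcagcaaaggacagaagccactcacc
The match began at -183 from the start site in Saa2, at -182 in Saa1 and, on the other strand, at -99 in Saa3, and 9.56% of all promoters of this length hold these letters. The letters searched for the NF-kappaB motif, held by 1.41%, were not found in these 3 windows.

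Other secreted defence proteins fell as well. Pla2g5, a secreted phospholipase A2, was at -4.52, -5.85, -5.09 and -4.04 in Trif mutants, 2.75, 2.56, 2.52 and 1.17 in Tlr4 knockouts and 1.93 to 3.15 in wild type, a difference of -7.12 ± 0.49 (FDR = 4.5e-08). Tlr4 knockout 4 was the lowest of its group for this gene. Retnlb, the gene of the goblet cell protein RELM-beta, was at -8.84, -8.06, -4.84 and -7.15 against -0.97, -0.77, -0.66 and -2.12, a difference of -6.09 ± 0.79 (FDR = 1.9e-05), with Trif mutant 3 highest among the mutants and the only one well above background. Dmbt1, a scavenger protein of mucus, was at 3.39, 2.14, 2.35 and 4.38 against 7.13, 7.06, 6.91 and 6.42 (-3.82 ± 0.38, FDR = 1.9e-06). Duoxa2, the maturation factor of the hydrogen peroxide-producing oxidase DUOX2, ranged over -3.48 to 1.24 in Trif mutants and 2.15 to 3.23 in Tlr4 knockouts (-3.69 ± 0.73, FDR = 0.00064), and Nos2, the inducible nitric oxide synthase, fell by 2.86 (± 0.42; after normexp -0.66, FDR = 0.38). The lectin Reg3g was at 6.29, 5.5, 6.6 and 4.78 against 7.94, 7.93, 7.97 and 7.82 (-2.12 ± 0.27, FDR = 1.5e-05), while its relative Reg3a rose (0.85 ± 0.2, FDR = 0.0026; after normexp 0.7, FDR = 0.098, with the Xist covariate 0.65, FDR = 0.083) and Reg3b differed by -0.17 ± 0.11 (FDR = 0.23; -0.45 and passing under quantile normalization). Reg family transcripts are similar in sequence, so their probes may share signal. Lrg1, an acute phase glycoprotein, fell by 2.5 (± 0.53), and was -1.47, FDR = 0.072 after normexp. It lies on chromosome 17 within 10 megabases of Ticam1. Lcn2, which binds bacterial siderophores, was not well above background in Trif mutants and at least 1.71-fold lower (-2.98 ± 0.53, FDR = 0.00028; after normexp 0.086, FDR = 0.9).

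Genes of dividing crypt cells were lower in Trif mutants nearly throughout. Of 58 genes of mitosis and DNA replication 54 were lower and 1 was higher, with a median of -2.03. The median within slides 1 to 4 was -1.9, -3.27, -2.8 and -0.44, so the difference was smallest on slide 4, where the sexes were alike. With the Xist covariate the median was -1.31 with 44 lower, and without both replicates 4 it was -2.57 with 55 lower. The mean signal of the list was -0.17, -1.22, -0.94 and 0.54 in Trif mutants 1 to 4, 1.62, 1.75, 1.60 and 1.04 in Tlr4 knockouts and 1.46 to 1.79 in wild type. Tlr4 knockout 4 was thus the lowest of its group and Trif mutant 4 the highest of its own, and the groups did not overlap. Against wild type the median was -0.12 in Tlr4 knockouts and -2.12 in Trif mutants, with 55 members lower in the latter. Cdk1, the kinase that drives entry into mitosis, was at -2.14, -3.69, -3.15 and -0.61 in Trif mutants and 1.01, 1.31, 0.97 and 0.38 in Tlr4 knockouts (-3.32 ± 0.46, FDR = 3.3e-05), and another probe gave -0.99 (FDR = 0.0051). Cyclin D1 (Ccnd1) was at 0.13, -1.24, -1.02 and -0.36 against 2.99, 2.94, 3.17 and 1.91 (-3.38 ± 0.31, FDR = 9.5e-07). Cyclin B1 (Ccnb1, -3.05 ± 0.45, FDR = 5.5e-05), the spindle checkpoint kinase Ttk (-3.62 ± 0.51, FDR = 3.6e-05; after normexp -0.54, FDR = 0.52) and Mki67 (-2.01 ± 0.38, FDR = 0.00043) fell too.

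Genes of ribosome biogenesis and Myc targets were lower as well. Of 30 genes 28 were lower and 1 higher, with a median of -1.67 overall and -1.53, -2.51, -2.06 and -0.71 within slides 1 to 4 (-1.28 with the Xist covariate, 26 lower). Srm, which makes spermidine, was at -1.24, -2.35, -1.8 and -1.18 in Trif mutants and 1.52, 1.47, 1.42 and 0.56 in Tlr4 knockouts (-2.89 ± 0.28, FDR = 1.7e-06). The nucleolar protein gene Gnl3 fell by 2.45 (± 0.24) and Myc itself by 2.14 (± 0.37). The nucleolar gene Utp20 fell by 2.33 with the probe kept, but another probe gave 0.26 (FDR = 0.23), so its value depends on the probe. Odc1, which feeds Srm, was the member that rose (0.49 ± 0.14, FDR = 0.0092), and it no longer passed after normexp (0.36, FDR = 0.26), quantile normalization (0.28, FDR = 0.088) or with the Xist covariate (0.39, FDR = 0.14).

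The stem cell list was mixed. Of 34 genes 17 were lower and 5 higher, with a median of -0.82. Within slides 1 to 4 the median was -0.64, -1.35, -0.88 and -0.032, and it was -0.35 with the Xist covariate and -0.27 after normexp. Olfm4, a marker of crypt base columnar cells, was at -1.52, -2.79, -3.38 and 0.31 in Trif mutants and 2.14, 2.48, 1.95 and 1.58 in Tlr4 knockouts (-3.88 ± 0.58, FDR = 6.1e-05), and Tnfrsf19 fell by 2.75 (± 0.41; after normexp -0.88, FDR = 0.16). For Olfm4 the 4 Trif mutants spread more widely than the other mice and all lay below them. Lgr5, the receptor that defines these stem cells, fell by 1.21 (± 0.34), a call lost after normexp (-0.78, FDR = 0.093) and with the Xist covariate (-0.61, FDR = 0.3). Apcdd1, a Wnt inhibitor, rose by 4.02 ± 0.26 (FDR = 2e-08), with another probe at 0.76 (FDR = 0.23).

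Secretory cell lineages moved in different directions. Tuft cells are chemosensory cells that release IL-25 and start type 2 immunity. Of 33 measured markers 29 were higher and 0 lower by limma (30 higher and 0 lower at an unadjusted p under 0.05), with a median of 1.66 overall and 1.54, 1.81, 2.13 and 0.99 within slides 1 to 4; the Xist covariate gave 1.29 with 24 higher. Their mean signal was -0.65, -0.35, -0.18 and -0.88 in Trif mutants, -2.16, -2.04, -2.11 and -1.74 in Tlr4 knockouts and -1.83 to -1.53 in wild type. Of the Tlr4 knockouts 3 lay below wild type, and the Trif mutants all lay above it. Sucnr1, the succinate receptor, was at 0.53, 0.86, 1.4 and -0.92 in Trif mutants, -3.03, -2.97, -2.47 and -2.09 in Tlr4 knockouts and -2.58 to -1.58 in wild type (3.11 ± 0.46, FDR = 5.4e-05). The keratin Krt23 (2.46 ± 0.3, FDR = 1e-05), the lectin Siglecf (2.44 ± 0.36, FDR = 5.5e-05) and the kinase Bmx (2.66 ± 0.4, FDR = 6.4e-05; at least 4.21-fold, not well above background in Tlr4 knockouts; after normexp 0.82, FDR = 0.25) rose as well. The kinase gene Dclk1, a marker of the lineage, was at -0.055, 0.23, 0.36 and 0.0072 against -1.95, -1.63, -1.91 and -1.34 (1.84 ± 0.3, FDR = 0.00011). Il25 rose by 1.83 ± 0.57 (FDR = 0.016), at least 2.97-fold, a call lost without Trif mutant 3 (FDR = 0.054), after normexp (0.78, FDR = 0.28) and with the Xist covariate (1.76, FDR = 0.11). Pou2f3, the transcription factor of the lineage, did not pass (0.39 ± 0.25; -0.047, FDR = 0.93 with the Xist covariate), but passed without Trif mutant 4 (0.74, FDR = 0.00089).

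Enteroendocrine cells secrete gut hormones. Of 33 measured genes 23 were higher and 3 lower, with a median of 0.99, and the medians within slides 1 to 4 were close to each other at 1.1, 0.94, 0.99 and 0.93. The Xist covariate gave a median of 1.0 with 18 higher. Both genotypes departed from wild type: 15 genes were lower and 2 higher in Tlr4 knockouts, and 16 were higher and 4 lower in Trif mutants. Cholecystokinin (Cck) was at 2.94, 3.43, 2.43 and 3.91 in Trif mutants, -0.079, 0.059, -0.23 and 0.017 in Tlr4 knockouts and 2.28 to 2.71 in wild type (3.23 ± 0.31, FDR = 1.4e-06). Here the wild type mice lay far above the Tlr4 knockouts and overlapped the Trif mutants. Ghrelin (Ghrl) was at 1.63, 1.65, 1.1 and 2.17 against -1.28, -1.5, -1.76 and -1.22 (3.08 ± 0.22, FDR = 5.4e-08), with wild type at 0.48 to 1.03 in between. Neurotensin (Nts, 3.01 ± 0.37, FDR = 1.1e-05), secretogranin II (Scg2, 2.44 ± 0.28, FDR = 6.4e-06) and the incretin Gip (2.1 ± 0.21, FDR = 1.7e-06) rose too. The substance P precursor gene Tac1 fell (-1.62 ± 0.21, FDR = 1.8e-05), while another probe gave -0.23 (FDR = 0.71).

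Goblet cells make mucus. Of 30 measured markers 8 were higher and 12 lower, beside 23.5% and 17.6% of all features, with a median of -0.12. Clca3b, a member of the calcium-activated chloride channel regulators, was at -3.37, -3.83, -3.89 and -2.97 in Trif mutants and 0.88, 0.87, 0.71 and 0.28 in Tlr4 knockouts (-4.2 ± 0.26, FDR = 1.3e-08), and the membrane mucin Muc4 was at 0.2, -0.3, -0.31 and 1.26 against 2.64, 2.5, 2.52 and 2.18 (-2.25 ± 0.27, FDR = 1.1e-05). The secreted mucus proteins Clca1 (1.08 ± 0.19, FDR = 0.00025) and Tff3 (0.67 ± 0.17, FDR = 0.0039) rose, Tff3 not after normexp (0.54, FDR = 0.18) or with the Xist covariate (0.51, FDR = 0.1). The genes that form glycan chains on mucus and membranes were split, with 9 of 31 higher and 8 lower, beside the same shares of all features. B3galt5, which builds type 1 chains, was at -1.47, -1.76, -0.84 and -0.86 against 3.66, 2.98, 3.17 and 1.7 (-4.11 ± 0.54, FDR = 2.1e-05), with wild type at 3.34 to 5.66, above all but 1 of the Tlr4 knockouts. B3gnt5, which starts lacto-series glycolipids, was not well above background in Trif mutants and at least 3.75-fold lower (-3.41 ± 0.45, FDR = 2e-05; after normexp -0.11, FDR = 0.86), and the sialyltransferases St6galnac6 (2.05 ± 0.26, FDR = 1.7e-05, other probes 0.61 and 0.02) and St3gal1 (1.58 ± 0.35, FDR = 0.0015; with the Xist covariate 1.11, FDR = 0.079) rose.

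Paneth cells guard the crypt base with antimicrobial peptides. Of 10 alpha-defensin features measured of 31 listed, 0 passed in either direction by limma, and the median was -0.27. At an unadjusted p under 0.05 there were also 0 higher and 0 lower. Without Tlr4 knockout 4 the median was -0.53, with 0 higher and 1 lower by limma. These transcripts are near-identical copies and their probes share signal. Of 23 other Paneth cell products 5 were higher and 5 lower, beside 23.5% and 17.6% of all features. Their median was -0.4 (-0.24 without Trif mutant 4). Mmp7, the protease that activates pro-defensins, was at -0.68, -0.94, -1.03 and -0.86 in Trif mutants, 2.26, 2.52, 2.49 and 1.06 in Tlr4 knockouts and 1.23 to 2.67 in wild type (-2.96 ± 0.42, FDR = 3.9e-05). Pla2g2a, another secreted phospholipase A2, fell by 2.40 (± 0.47; after normexp -1.12, FDR = 0.093), and lysozyme 1 (Lyz1) did not pass (-0.67 ± 0.52). Of the members that rose, Clps was at 2.45, 2.51, 2.32 and 2.35 in Trif mutants and 0.79, 0.9, 0.56 and 0.42 in Tlr4 knockouts. Wild type lay in between at 1.36 to 2.14.

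**Figure D3:**
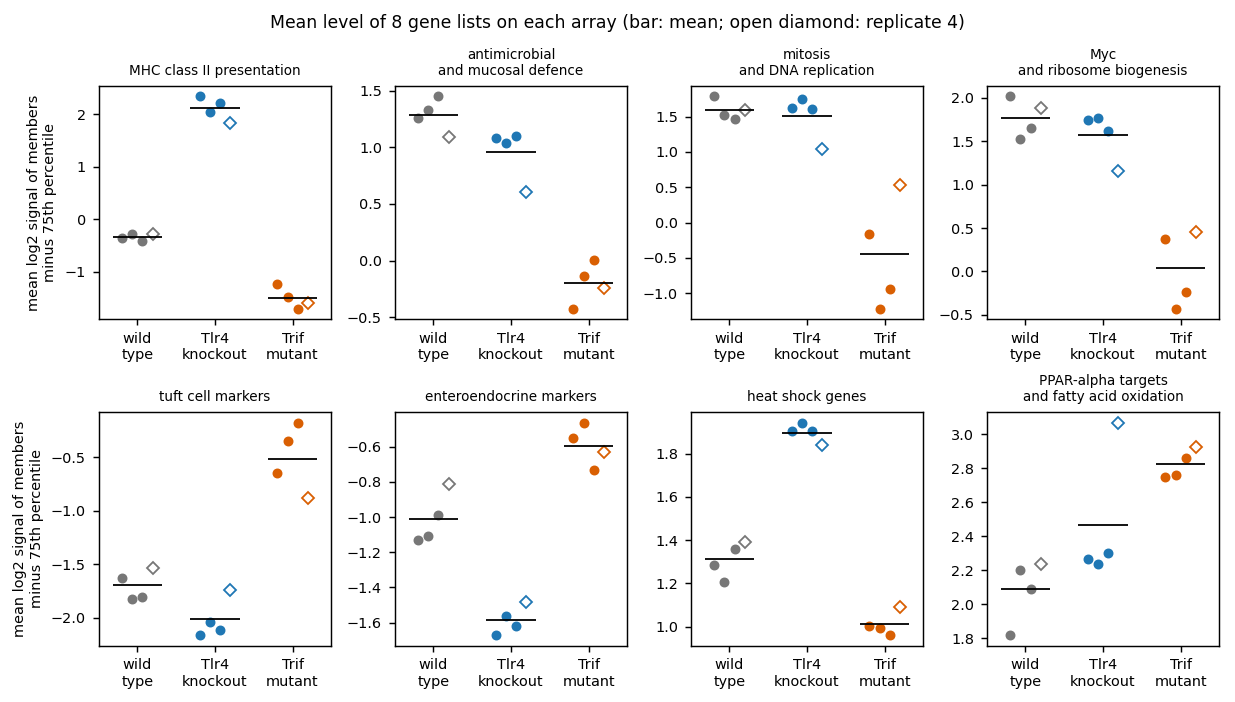
Mean signal of the measured members of 8 gene lists on each wild type, Tlr4 knockout and Trif mutant array (log2, minus the array's 75th percentile), with group means as bars and replicate 4 as an open diamond. MHC class II and heat shock genes are highest in Tlr4 knockouts, mitosis and ribosome genes are lowest in Trif mutants with replicate 4 nearest to the others, and tuft cell markers are highest in Trif mutants.

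Genes of absorptive enterocytes, which take up nutrients, were higher in Trif mutants or did not pass. Of 46 genes 30 were higher and 0 lower by limma (32 higher and 0 lower at an unadjusted p under 0.05), with a median of 0.62 overall and 0.72, 0.9, 0.81 and 0.15 within slides 1 to 4. Their mean signal was 6.48, 6.58, 6.61 and 6.46 in Trif mutants, 5.78, 5.64, 5.77 and 6.31 in Tlr4 knockouts and 5.50 to 5.99 in wild type. Tlr4 knockout 4 alone lay near the Trif mutants. Under the Xist covariate 13 were higher, after normexp 12 and under quantile normalization 23, all with 0 lower. Apolipoprotein C-III (Apoc3) was at 6.78, 6.53, 6.53 and 6.07 against 4.74, 4.47, 4.56 and 5.59 (1.64 ± 0.25, FDR = 6.9e-05), the proline transporter Slc6a20a at 5.87, 5.89, 5.69 and 6.22 against 4.24, 4.21, 4.02 and 5.47 (1.43 ± 0.25, FDR = 0.00023). Among markers of gut regions, 10 of 20 ileal genes were higher and 2 lower, 14 of 25 duodenal and proximal genes higher and 1 lower, and 3 of 21 colonic genes higher and 5 lower. The shares over all features were 23.5% higher and 17.6% lower. The 14 duodenal genes became 9 without Trif mutant 4, 6 with the Xist covariate and 5 after normexp, and without both replicates 4 the colonic counts were 5 and 4. The region taken is not labelled, and its part in any difference was not tested. Tfrc, the transferrin receptor of the proximal gut and of dividing cells, was the 1 proximal gene that fell, by 1.45 (± 0.21). Of the proximal genes that rose, S100g was at 4.92, 6.77, 6.74 and 7.66 in Trif mutants and 3.28, 3.38, 5.94 and 3.26 in Tlr4 knockouts, with overlap. Peptide YY (Pyy), an ileal and colonic hormone, rose by 1.84 ± 0.27 (FDR = 5.9e-05), and the water channel Aqp8 by 3.1 ± 0.66 (FDR = 0.0011). Colonic genes that fell are not named here.

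Many genes of detoxification rose. Of 56 cytochrome P450, glutathione and retinoid genes 38 were higher and 1 was lower, with a median of 1.0 overall and 0.97, 1.33, 1.11 and 0.48 within slides 1 to 4 (19 higher with the Xist covariate, 24 after normexp). Cyp3a11, the main drug-metabolising P450 of mouse gut and liver, was at 6.51, 6.97, 6.07 and 7.57 in Trif mutants, 3.89, 3.43, 2.8 and 5.54 in Tlr4 knockouts and 2.8 to 4.81 in wild type (2.87 ± 0.6, FDR = 0.001). Tlr4 knockout 4 was again nearest to the Trif mutants without overlap. Cyp3a44 (2.95 ± 0.61, FDR = 0.00087) is a close copy and may share its signal. Both metallothioneins named here, which bind zinc and copper, were higher too: Mt2 was at 7.16, 7.01, 5.57 and 6.64 against 3.16, 3.09, 2.7 and 4.39 (3.26 ± 0.48, FDR = 5.3e-05) and Mt1 at 6.47, 6.51, 5.3 and 5.66 against 3.59, 3.53, 3.58 and 4.45 (2.2 ± 0.33, FDR = 6.2e-05). Of 15 genes of zinc handling 6 were higher and 2 lower. This count and those that follow stand beside 23.5% higher and 17.6% lower of all features. Of 38 PPAR-alpha targets 12 were higher and 1 lower, and without Tlr4 knockout 4, whose mean of 3.07 lay above the 2.24 to 2.30 of the others, 20 were higher and 1 lower. Respiratory chain subunits showed 15 of 40 higher and 1 lower with a median of 0.19, which quantile normalization turned to -0.04. Of 26 cholesterol synthesis genes 8 were higher and 3 lower (7 lower without Tlr4 knockout 4). Sc5d, an enzyme late in the pathway, rose by 0.84 ± 0.15 (FDR = 0.00023; another probe 0.26, FDR = 0.16). Of 21 clock genes 8 were higher and 3 lower, with a median of 0.12 on all arrays, 0.61, 0.73, 0.51 and -0.53 within slides 1 to 4, 0.34 without Trif mutant 4 and 0.6 without Tlr4 knockout 4. The clock output regulator Hlf was at 0.46, -0.068, 0.55 and 0.024 against -2.46, -2.07, -3.14 and -0.81 (2.36 ± 0.41, FDR = 0.0002), with Tlr4 knockout 4 highest in its group, and its antagonist Nfil3 fell by 1.5. The hour of dissection is not in the labels.

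More genes of protein folding were lower than higher in Trif mutants. Of 20 heat shock genes 12 were lower and 1 higher, with a median of -0.61 overall and -0.63, -0.52, -0.4 and -0.47 within slides 1 to 4. Their mean signal was 1.00, 0.99, 0.96 and 1.09 in Trif mutants, 1.90, 1.94, 1.90 and 1.84 in Tlr4 knockouts and 1.21 to 1.39 in wild type. The list mean of Tlr4 knockouts thus lay above wild type and that of Trif mutants below it, while the median difference of the members between Trif mutants and wild type was 0.11, opposite in sign to the mean. Hspa1a, the inducible HSP70, was at -1.51, -0.5, -0.34 and -1.71 in Trif mutants, -1.91 to -1.22 in wild type and 2.58, 1.5, 1.99 and 2.39 in Tlr4 knockouts, so Trif mutants overlapped wild type. Its difference was -3.13 ± 0.5 (FDR = 0.00011), and its neighbour and close copy Hspa1b gave -3.02 ± 0.44 (FDR = 4.9e-05). Hsph1, an HSP110 chaperone, was at 0.81, 0.27, 0.78 and 1.53 in Trif mutants, 2.76 to 3.17 in wild type and 4.8, 4.46, 4.49 and 4.27 in Tlr4 knockouts (-3.66 ± 0.28, FDR = 1.3e-07), with no overlap between any of the groups. Hspb1, a small heat shock protein, rose (0.97 ± 0.21, FDR = 0.0013; after normexp 0.72, FDR = 0.17). Of 24 endoplasmic reticulum chaperones 12 were lower and 2 higher (median -0.29), among them Creld2 (-1.22 ± 0.13, FDR = 4.5e-06), Pdia6 (-0.99 ± 0.12, FDR = 1.5e-05) and the BiP gene Hspa5 (-0.84 ± 0.13, FDR = 8.9e-05). Of 24 genes of serine synthesis and the ATF4 response 8 were lower and 6 higher; the serine synthesis enzyme Psat1 was at -2.13, -3.24, -2.4 and -1.39 against -0.17, 0.12, 0.32 and -0.75 (-2.17 ± 0.31, FDR = 3.9e-05). Immediate early genes, by contrast, were 11 higher and 1 lower of 30, with a median of 0.56, 0.011 on slide 4 and 0.25 with the Xist covariate. Jun rose by 1.12 ± 0.28 (FDR = 0.0042; with the Xist covariate 0.56, FDR = 0.23).

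Most single genes with the largest rises lay outside the gene lists. Apart from the Y-linked Eif2s3y (at least 72.7-fold) and Ddx3y (at least 24.9-fold), which were high in Trif mutants 1 to 3 and at background in Trif mutant 4 and all Tlr4 knockouts, and Xist (-8.03 ± 2.19, FDR = 0.007), with the reverse pattern, they included Ppp1r3g, a glycogen-targeting subunit of protein phosphatase 1. It was at -3.47, -3.68, -2.88 and -1.1 in Trif mutants, -4.96 to -3.23 in wild type and not well above background in Tlr4 knockouts, at least 10.6-fold lower there (5.4 ± 0.52, FDR = 1.5e-06). Afm, a vitamin E-binding protein of the albumin family, was at -0.66, -0.74, -0.2 and 0.15 against -5.1, -4.69, -6.09 and -4.77 (4.8 ± 0.26, FDR = 3.3e-09), while its other probe gave 0.55 (FDR = 0.55). Likewise Zmat4 (4.03 ± 0.29, FDR = 8e-08) had another probe at 0.71 (FDR = 0.083), and Nox4 (3.33 ± 0.52, FDR = 8e-05), an oxidase, another at 1.16. Myom3, a sarcomere protein, was at 0.34, 0.8, 0.35 and 0.58 in Trif mutants, -0.77 to -0.42 in wild type and -3.21, -3.56, -3.53 and -3.68 in Tlr4 knockouts (4.01 ± 0.17, FDR = 1.4e-10), with 3 separate groups. The tetraspanin-like Tm4sf4 was at 6.76, 6.97, 7.62 and 6.97 against 3.01, 2.61, 3.39 and 4.89 (3.6 ± 0.5, FDR = 3e-05), and the tight junction protein Cldn4 at 1.32, 1.3, 2.3 and -1.11 against -1.44, -3.08, -2.77 and -1.98 (3.27 ± 0.61, FDR = 0.00038). Other rises taken by the same rule were Cryz (3.5), Smcp (3.42), Kcnmb4 (3.7, at least 5.25-fold; after normexp 1.08, FDR = 0.09) and Astx6 (3.78, at least 5.87-fold, overlapping wild type). Astx6 lost its call without Trif mutant 2 or 3 or Tlr4 knockout 1 (FDR 0.050 to 0.061), after normexp (1.34, FDR = 0.12) and with the Xist covariate (1.15, FDR = 0.59).

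Among large falls outside the lists, Ceacam10, a secreted adhesion molecule of the CEA family, was at -5.64, -5.15, -6.07 and -6.22 in Trif mutants, -0.98, -1.38, -1.3 and -1.92 in Tlr4 knockouts and -6.75 to -4.13 in wild type (-4.37 ± 0.46, FDR = 3e-06). The Tlr4 knockouts stood above both other groups, and 2 of 4 Trif mutants were well above background. Gsdmc2, a pore-forming gasdermin, was at -1.61, -1.13, -1.81 and -2.55 against 2.58, 2.82, 2.6 and 1.94, with wild type at 0.43 to 1.24 in between (-4.26 ± 0.28, FDR = 2.2e-08). Rhoj, a small GTPase of endothelial cells, was not well above background in any Trif mutant with either probe and at least 8.61-fold lower (-4.35 ± 0.77, FDR = 0.00024; after normexp -0.68, FDR = 0.46).

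**Figure D4:**
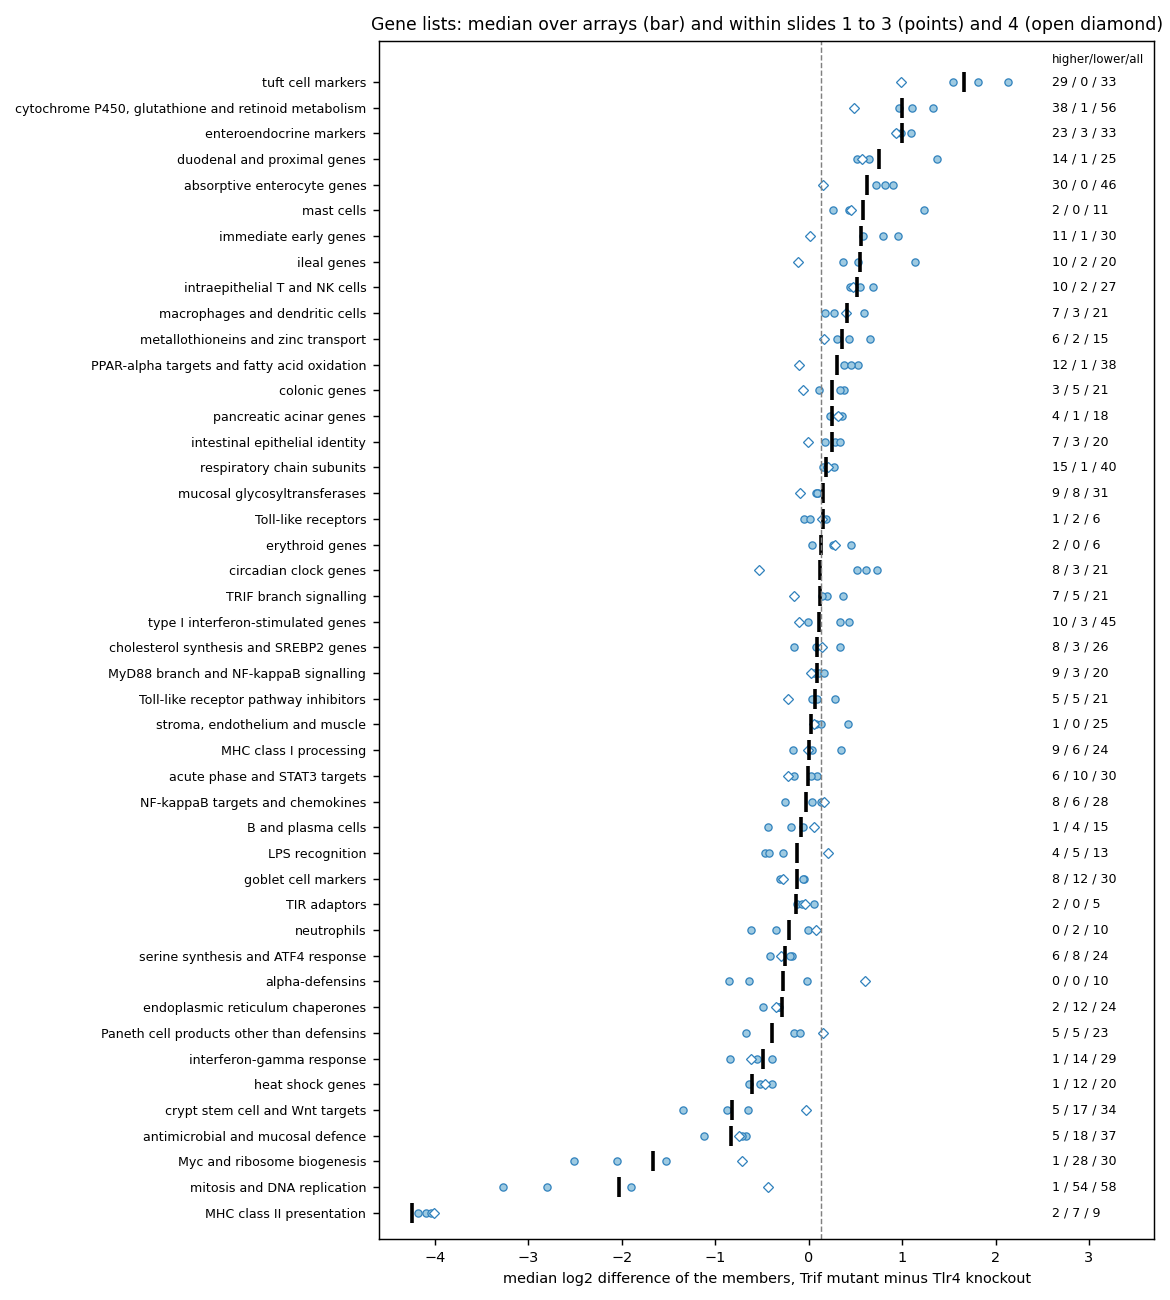
Median log2 difference (Trif mutant minus Tlr4 knockout) of the measured members of 45 gene lists, with the medians within slides 1 to 3 as filled points, within slide 4, the slide of like sex, as an open diamond, and the median of all features as a dashed line. The numbers at the right count members higher, lower and measured; MHC class II lies furthest left at -4.24, with -4.18 to -4.01 on single slides, and the mitosis list moves from -3.27 on slide 2 to -0.44 on slide 4.

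Markers of other cell types are given for comparison, beside 23.5% of all features higher and 17.6% lower. Of 27 measured genes of intraepithelial T and NK cells 10 were higher in Trif mutants and 2 lower, with a median of 0.52, and their mean signal was -1.98 to -1.45 in Trif mutants, -2.29 to -1.82 in Tlr4 knockouts and -1.89 to -1.34 in wild type. Ptprc, the gene of CD45, was at 0.32, 0.11, 0.26 and 0.51 against -1.0, -1.28, -1.07 and -0.58 (1.28 ± 0.26, FDR = 0.00083), with wild type at -0.8 to 0.07, below all Trif mutants and overlapping the Tlr4 knockouts. The count of 10 and 2 became 6 and 2 without Trif mutant 4, 14 and 2 without Tlr4 knockout 4 and 10 and 0 without both replicates 4. It was 3 and 0 both with the Xist covariate and after normexp. The chemokine Xcl1 of lymphocytes rose by 1.59 ± 0.29 (FDR = 0.00036), and was 0.99, FDR = 0.051 after normexp. The members that fell were Cd8b1, a chain of the CD8 co-receptor at -3.49, -3.64, -4.01 and -3.44 against -2.13, -2.86, -2.25 and -2.3 (-1.26 ± 0.43, FDR = 0.025), and the granzyme Gzmk, which was well above background in 0 of 4 Trif mutants and 1 of 4 Tlr4 knockouts (-1.62 ± 0.55, FDR = 0.026). Both lost their call with the Xist covariate (FDR 0.11 and 0.057), after normexp (-0.46, FDR = 0.57 and 0.23, FDR = 0.74) and without both replicates 4 (FDR 0.056 and 0.065). Cd8b1 also lost it without Trif mutant 3 or Tlr4 knockout 1 or 3 (FDR 0.055 to 0.068), and Gzmk without Trif mutant 1 or Tlr4 knockout 3 (FDR 0.068 and 0.074). Of 11 mast cell genes 2 were higher and 0 lower, of 10 neutrophil genes 0 and 2, of 25 genes of stroma, endothelium and muscle 1 and 0, of 18 pancreatic genes 4 and 1, and of 6 erythroid genes 2 and 0, all by limma. At an unadjusted p under 0.05 the counts were 2 and 1 for mast cells, 0 and 2 for neutrophils, 2 and 1 for stroma and 2 and 1 for erythroid genes. Ltf, the lactoferrin of neutrophils and secretions, fell by 1.37 (± 0.18; after normexp -0.63, FDR = 0.15). The haemoglobin gene Hba-a1 rose by 1.48 ± 0.23 (FDR = 9.7e-05; after normexp 0.92, FDR = 0.074). The part of these cells in the defence and interferon differences was not tested.

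Features near the mutated loci were counted beside all features. Within 10 megabases of Tlr4 21 of 97 features were higher and 19 lower (41.2% against 41.1% of all). Within 10 megabases of Ticam1 36 of 178 were higher and 25 lower (34.3%).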

How the data were processed

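Intestinal epithelial cells were isolated with EDTA, RNA was extracted with TRIzol, and cells positive for CD45 were under 5%, per the labels' protocols. The deposited scanner files hold 1 Cy3 intensity per spot (Agilent Feature Extraction 10.7.3.1, per the file headers), already background-subtracted and processed by that software. The authors' deposited value table equals these intensities times 1 factor per array, with a floor of 15, and served as an alternative.

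From the deposited intensities the log2 of the processed signal minus its 75th percentile on each array was computed. Control spots and spots with outlier flags were left out, spots of 1 probe were averaged, and probes were named through their RefSeq accession where it matched (26783 of 41174). Kept were probes well above background on at least 4 of the 20 arrays (31537, 76.6%). Where a gene had more than 1 such probe, the brightest on average stood for it, giving 21879 features, 15793 of them with a standard gene symbol. One linear model over all 20 arrays with genotype as the only term was fitted with limma 3.58.1 in R 4.3.3 (lmFit, eBayes). Precision is limited by the number of arrays, and the median standard error of a difference was 0.19. In simulated data with 21608 features, 4, 38, 42 and 49 of 50 changed features were recovered at a size of 0.5, 1, 2 and 3 log2 units, with 9 false calls of 142. Only 50 features were changed at each size, a far smaller share than the 41.1% called in the data. The adjusted threshold is stricter when fewer features change, so these recoveries are not those of the main fit. Its smallest called difference was 0.18 in size.

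The comparison, its gene lists and the gene choice were made with earlier results of these data known. Named genes were the targeted genes, the 15 largest rises and falls whose arrays did not overlap, up to 4 called members with the largest change in each list, the largest member against its list, and members of the receptor, adaptor and serum amyloid lists. Outside this rule, Tbk1, Traf3, H2-Ab1, H2-DMa, Ctss, Igtp, Lrg1, Reg3a, Reg3b, Dmbt1, Duoxa2, Cxcl16, Ccl28, Tff3, Clca1, Lyz1, Dclk1, Il25, Pou2f3, Lgr5, Mki67, Cd8b1 and Gzmk were chosen after their values were seen. A few genes that the rule takes are not given in the text. Alternatives were normexp background correction (offset 50), quantile and median scaling, the value table, 3 other filters or floors, all probes, other moderation, array weights, other sets of arrays, slide as a fixed or random block, Xist as a covariate, a minimum change and leaving out each array. Leaving out replicate 4 of both groups was added after seeing that these arrays lay apart. Promoters came from RefSeq's table for GRCm38.p6, and probe coordinates are those of the array files (mm9).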

Additional observations from a re-analysis of the deposited data

Results flagged for a closer look

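In groups of 4 mice, an array was singled out when its gap to the nearest other array exceeded the usual critical share of the group's range in Dixon's test. Of 392 such groups over 150 named genes and 46 list means, 34 passed, where chance gives about 1 in 20. Values are log2 signals minus the array's 75th percentile, with the range of the other 3 arrays of the genotype.

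Tlr4 knockout replicate 4 was singled out most often. It was low for Tlr2 at -1.65 (others -0.7 to -0.6), Lbp at -3.72 (others -2.4 to -2.31), Cd14 at -0.45 (others 0.21 to 0.22), Lrg1 at -2.07 (others -0.31 to 0.052), Pla2g5 at 1.17 (others 2.52 to 2.75), Ccl9 at 0.19 (others 0.91 to 1.04), Tac1 at -1.03 (others -0.54 to -0.45) and Srm at 0.56 (others 1.42 to 1.52). It was high for Ifi27 at 3.98 (others 3.25 to 3.34), Slc6a20a at 5.47 (others 4.02 to 4.24) and Mt1 at 4.45 (others 3.53 to 3.59). Its mean list level stood apart for antimicrobial and mucosal defence at 0.61 (others 1.04 to 1.1), cytochrome P450, glutathione and retinoid metabolism at 3.8 (others 2.59 to 2.79), PPAR-alpha targets and fatty acid oxidation at 3.07 (others 2.24 to 2.3) and circadian clock genes at -0.16 (others -0.95 to -0.93). All of these remain in the counts of the report, and values from the fit without this array are given there for several results.

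Trif mutant replicate 4, the mouse of its group without Y-linked signal, stood apart for the sex genes, with Eif2s3y at -8.03 (others 2.64 to 2.73), Ddx3y at -7.98 (others 0.58 to 0.63) and Xist at 2.32 (others -8.02 to -7.36), and in the list of Y-linked genes and Xist at -5.4 (others -1.93 to -1.78). It also stood apart for Ticam1 at 1.67 (others 2.15 to 2.23), Tlr1 at -3.38 (others -5.47 to -5.12) and Pou2f3 at -6.8 (others -5.47 to -5.32).

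Trif mutant replicate 3 was high for Ripk3 at 2.35 (others 1.92 to 1.96) and Mrc1 at -0.61 (others -2.26 to -2.06) and for the mean of cholesterol synthesis and SREBP2 genes at 2.91 (others 2.31 to 2.37). Trif mutant replicate 1 stood apart for H2-Eb1 at -1.69 (others -2.15 to -2.1), Lcn2 at -8.78 (others -8.07 to -7.99) and Gzmk at -8.77 (others -8.13 to -8.03). Tlr4 knockout replicate 3 was high for Tlr3 at -1.33 (others -1.7 to -1.65), Ubd at 4.22 (others 3.15 to 3.21) and Igtp at 5.6 (others 4.84 to 4.92) and for the mean of mucosal glycosyltransferases at 0.33 (others 0.073 to 0.099), and Tlr4 knockout replicate 2 stood apart for Tff3 at 6.58 (others 6.9 to 6.91) and Xist at 3.04 (others 2.79 to 2.83).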

How the results depend on the processing

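Of 8992 features differing (5146 higher, 3846 lower), normexp background correction left 3658 (1868 and 1790), the Xist covariate 5548 (3141 and 2407) and a log2 change of at least 1 2929 (1286 and 1643), the last by its own construction. Keeping all probes gave 5858 lower, with more features tested. The cause of the other changes was not tested. Leaving out single arrays gave 7617 to 9292 features, 4246 to 5299 higher and 3371 to 3993 lower. The other alternatives, from 7700 (the 8 arrays alone) to 13084 (all probes), stayed within 1.5 times each total.

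Of the 150 genes followed through the settings, 45 lost their call with the sign kept under at least 1 setting. Of the 45, 37 did so after normexp and 23 with the Xist covariate. A call was gained by 3 genes. Lcn2 and Gzmk after normexp and Xist under its own covariate also lost their call. Their sign was not kept there, so the counts of these settings leave them out. The sign turned for Tlr9 (-0.058 after normexp, -0.079 under quantile normalization, and -0.0086 to 0.091 with single arrays left out), Saa4 (0.38 after normexp, 0.0073 in the deposited table, 0.15 with the Xist covariate), Lcn2 (0.086 after normexp), Gzmk (0.23 after normexp) and Pou2f3 (-0.047 with the Xist covariate), and Xist was 0 with itself as covariate. The 16 list medians of at least 0.5 in size kept their sign in the 10 settings compared. Signals near background limit the dim genes.

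Same-numbered arrays shared a slide, and their deviations correlated at 0.30, 0.03, 0.22 and -0.08 for replicates 1 to 4 (different numbers -0.22 to 0.14). The values 0.30 and 0.22 lay above the range of different numbers, and 0.03 and -0.08 lay within it. The consensus correlation within slides was 0.12. These values do not settle whether the numbers pair the mice, and the main fit does not pair them. With the replicate number as a block 9718 features differed (5712 higher, 4006 lower), and H2-Oa alone of the 150 genes followed lost its call.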
